A study of Mus musculus with 753 samples.

Results

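The cells described are the basal interfollicular epidermal cells, annotated IFE-B by the authors, that fell in deposited cluster 4. They were taken by both columns of the deposited annotation, which gave 64 of 684 annotated cells and 64 of 373 IFE-B cells. Every cell of cluster 4 was annotated IFE-B, so the 64 cells were also the whole cluster. The other 309 IFE-B cells, 131 of cluster 0, 106 of cluster 2, 39 of cluster 1, 18 of cluster 3 and 15 of cluster 5, were compared with them.

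All cells came from back skin epidermis of adult Gata6EFGPCreERT2 Rosa26-fl/STOP/fl-tdTomato mice, Cre (+/-) tdTomato (+/-), treated topically with 4-hydroxytamoxifen so that cells expressing Gata6 at that time, and their progeny, carried tdTomato. Wound cells were collected at days 6, 9 and 11 after a full-thickness wound and day 0 cells from unwounded skin of the mice used for days 9 and 11. Both were sorted as lin+ (tdTomato-positive) or lin- (tdTomato-negative) cells, and the lineage mark depends on the Gata6 promoter and on how many Gata6-expressing cells recombined. The paper's sort also separated cells by surface Itga6, high in basal cells, but the sample titles do not give a cell's Itga6 gate. Each set of cells had 1 lineage, 1 day and 1 replicate, 14 sets in all, with pooled mice at day 6. The methods give day 6 replicates too, but the labels do not tell them apart, so day 6 counts as 1 set of each lineage. Replicate 1 formed batch 1 and replicate 2 with day 6 formed batch 2. Levels are given per 1000000 of a cell's total, as CPM from read counts in batch 1 and as TPM from length-normalised values in batch 2, and were compared within a batch only. The 64 cells comprised 10 lin+ and 54 lin- cells, 27 wound and 37 day 0 cells, and 25 cells of batch 1 and 39 of batch 2.

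The basal layer of the interfollicular epidermis holds the keratinocytes that divide and renew the skin between hair follicles. These cells make keratins 5 and 14, attach to the basement membrane through integrin α6β4 and an epidermal laminin, and give rise to suprabasal cells that switch to keratins 1 and 10. The 6 markers that came with the cluster belong to different systems. Serpinb2 encodes plasminogen activator inhibitor 2, Mt2 a metal-binding metallothionein and Fth1 the heavy chain of ferritin. Fcgbp encodes a secreted mucin-like protein that binds IgG Fc, Avpi1 a protein first described as induced by vasopressin, and Dusp1 a phosphatase that switches off MAP kinases.

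Promoters are shown for the markers that held the letters of a known response element, since AP-1, CREB and the metal-responsive factor MTF1 act on such elements, and for the genes far higher in cluster 4 that held the AP-1 letters. The 250 bases before the RefSeq start (GRCm38.p6) were searched on both strands for TGANTCA (AP-1), TGACGTCA (CREB) and the metal response element cores TGCGCNC and TGCACNC, and matches are in capitals. No match overlapped another. The Serpinb2 promoter (chr1:107511173-107511422, plus strand) held TGANTCA at -94 to -88. The Mt2 promoter (chr8:94172368-94172617, plus strand) held TGANTCA at -79 to -73, TGCGCNC at -128 to -122, and TGCACNC at -223 to -217 and, on the other strand, at -50 to -44. The Dusp1 promoter (chr17:26508473-26508722, minus strand) held TGACGTCA at -143 to -136. TGANTCA also lay at -164 to -158 of Il20ra (chr10:19712337-19712586, plus strand) and at -200 to -194 of Guca2a (chr4:119637482-119637731, plus strand), which are among the genes with the largest differences between cluster 4 and the other cells.
Serpinb2: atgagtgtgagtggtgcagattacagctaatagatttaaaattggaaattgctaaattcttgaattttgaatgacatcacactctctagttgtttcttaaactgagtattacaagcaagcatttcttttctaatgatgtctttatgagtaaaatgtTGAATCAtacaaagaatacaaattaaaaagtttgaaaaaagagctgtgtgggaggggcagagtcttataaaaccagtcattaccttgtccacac
Mt2: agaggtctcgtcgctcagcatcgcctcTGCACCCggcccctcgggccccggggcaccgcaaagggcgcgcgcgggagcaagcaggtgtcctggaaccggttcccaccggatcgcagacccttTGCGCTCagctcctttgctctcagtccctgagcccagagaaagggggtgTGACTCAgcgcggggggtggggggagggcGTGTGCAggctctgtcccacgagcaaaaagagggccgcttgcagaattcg
Dusp1: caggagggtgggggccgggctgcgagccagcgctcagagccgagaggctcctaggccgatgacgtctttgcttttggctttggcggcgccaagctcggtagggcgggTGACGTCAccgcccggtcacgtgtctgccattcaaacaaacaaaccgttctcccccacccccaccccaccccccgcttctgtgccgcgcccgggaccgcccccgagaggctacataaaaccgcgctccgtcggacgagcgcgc
Il20ra: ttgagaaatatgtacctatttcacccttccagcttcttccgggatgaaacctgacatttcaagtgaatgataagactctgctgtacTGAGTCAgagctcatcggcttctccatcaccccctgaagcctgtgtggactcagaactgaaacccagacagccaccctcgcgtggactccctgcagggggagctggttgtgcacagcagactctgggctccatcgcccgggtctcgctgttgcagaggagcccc
Guca2a: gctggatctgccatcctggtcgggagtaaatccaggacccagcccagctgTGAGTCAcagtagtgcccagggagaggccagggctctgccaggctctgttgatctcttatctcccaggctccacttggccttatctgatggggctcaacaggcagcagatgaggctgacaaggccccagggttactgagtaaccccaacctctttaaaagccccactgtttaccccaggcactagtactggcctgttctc

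Of all 27025 RefSeq promoters of this length, 7.82% held TGANTCA, 1.77% TGACGTCA, 14.0% TGCGCNC and 11.8% TGCACNC. The AP-1 letters stood in 2 of the 6 markers, in 2 of 12 genes that were far higher in cluster 4 and had a promoter entry, and in 0 of 12 genes that were far lower. The CREB letters stood in 1 marker and in 0 of 12 genes of either end. Of the metal response cores, TGCGCNC stood in 1 marker (Mt2), 2 of 12 higher genes (Igfbp3 and Spata5) and 2 of 12 lower genes. The core TGCACNC stood in 1 marker (Mt2), 2 of 12 higher genes (Epgn and Slc22a4) and 3 of 12 lower genes. These matches describe letters only, and binding was not measured.

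The cells matched their basal label. Krt5 and Krt14, the keratins of the basal layer, had a read in 64 of 64 cluster 4 cells, against 272 and 270 of 309 other IFE-B cells. The 12 basal interfollicular markers summed to a mean of 67550 CPM in cluster 4 cells and 34080 CPM in other IFE-B cells of batch 1, and to 36230 TPM in cluster 4 cells and 16840 TPM in other IFE-B cells of batch 2. The 8 upper follicle and sebaceous duct markers went the other way, with a summed mean of 802 CPM in cluster 4 and 7427 CPM in other cells of batch 1, and 1194 TPM in cluster 4 and 4298 TPM in other cells of batch 2. The other cells of these batches include many lin+ cells. Within lin- sets the sum was 681 CPM, 805 TPM, 1204 TPM and 1913 CPM in cluster 4 cells of day 0 replicate 1, day 0 replicate 2, day 6 and day 11 replicate 1, against 2804 CPM, 1030 TPM, 1111 TPM and 12780 CPM in other cells, so that the order turned at day 6. Gata6, the gene that drives the lineage mark, had no read in any of the 64 cells, which allows a share of up to 4.69%, against a read in 46 of 309 other IFE-B cells. These other cells include many lin+ cells, so the contrast is not matched for lineage. For the 54 lin- cells of cluster 4 alone, a count of 0 allows up to 5.56%. The 10 outer bulge markers, of which Cd34 and Mfap2 had no read in the 64 cells, summed to 12050 CPM in cluster 4 and 5839 CPM in other cells of batch 1, and to 10870 TPM in cluster 4 and 6516 TPM in other cells of batch 2, mostly from Krt15. Of 8 immune markers, which the CD45 gate should remove, 6 had no read in cluster 4. Their sum reached 1.38 CPM in 1 of 25 cells of batch 1 and 1574 TPM in 1 of 39 cells of batch 2. The 6 fibroblast, 4 melanocyte, 4 endothelial and 4 Merkel cell markers had medians of 0 in the cluster 4 cells of both batches, and highest sums of 33.3 TPM, 322 CPM, 48.4 TPM and 4.92 CPM.

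Depth and gene number overlapped widely between the groups. In batch 1 the median was 4637000 reads and 2259 genes in cluster 4 cells, against 4709000 reads and 2506 genes in other IFE-B cells. In batch 2 it was 3501000 reads and 2585 genes in cluster 4 cells, against 2383000 reads and 2746 genes in other IFE-B cells. None of the 64 cells had under 500000 reads, whereas 20 other IFE-B cells did. After thinning to that depth the median gene number was 1969 in cluster 4 and 2246 in other cells of batch 1, and 2155 in cluster 4 and 2417 in other cells of batch 2. Within the lin- sets the order differed. Before thinning, cluster 4 cells had medians of 2156, 2294 and 2794 genes in day 0 replicate 1, day 0 replicate 2 and day 6. Other IFE-B cells of these sets had 1613, 1574 and 1346 genes. In day 11 replicate 1 the median was 1704 genes in cluster 4 and 2455 in other cells. Ribosomal RNA (Rn18s and Rn45s) took a median of 21.7% of the total in cluster 4 cells and 16.5% in other IFE-B cells of batch 1. The other cells were not uniform. Those of cluster 2 had medians of 1380 and 1177 genes and 34.2% ribosomal RNA in batch 1, and those of cluster 0 had 2796 and 3305 genes. Every cell name, which includes the sequencing run, was unique, and the barcodes alone were not compared between sets.

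Cluster 4 was mainly a cluster of lin- cells and of unwounded skin. It held 10 of 176 lin+ IFE-B cells (5.68%, exact binomial 95% interval 2.76 to 10.2%) and 54 of 197 lin- IFE-B cells (27.4%, 21.3 to 34.2%). Among lin- cells the share was 50.7% at day 0 (34 of 67 cells), 24.6% at day 6 (14 of 57), 2.63% at day 9 (1 of 38) and 14.3% at day 11 (5 of 35). Among lin+ cells it was 6.82%, 4.55%, 6.52% and 4.76% at days 0, 6, 9 and 11, from 3, 2, 3 and 2 cells. The intervals cover counting error only, and the shares were not tested because the genes that made the cluster may themselves differ between lineages and days. Nor are the shares adjusted for the Itga6 gate of the sort, which is not known for each cell.

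The replicates differed. At day 0 the share was 4.35% of lin+ and 38.9% of lin- cells in replicate 1, and 9.52% of lin+ and 64.5% of lin- cells in replicate 2. At day 6 it was 4.55% of lin+ and 24.6% of lin- cells. At day 9 it was 6.90% of lin+ and 4.76% of lin- cells in replicate 1. In replicate 2 of day 9 it was 1 of 17 lin+ cells and 0 of 17 lin- cells, which allows up to 17.6% by 3 counts of the total and up to 19.5% by the exact interval. At day 11 all the cells came from replicate 1, with 11.1% of lin+ and 33.3% of lin- cells, and replicate 2 had 0 of 24 lin+ and 0 of 20 lin- cells, which allow up to 12.5% and 15.0% by 3 counts of the total and 14.2% and 16.8% by the exact interval. The lin+ share was thus below the lin- share in 4 of 7 mouse sets, above it in 2 and equal in 1. Among cells with at least 2000 genes, the shares of lin- cells were 52.9% and 89.5% in the replicates of day 0, 46.4% at day 6 and 0 of 5 cells in replicate 1 of day 11, whose 5 cluster 4 cells had 1404 to 1953 genes.

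**Figure D1:**
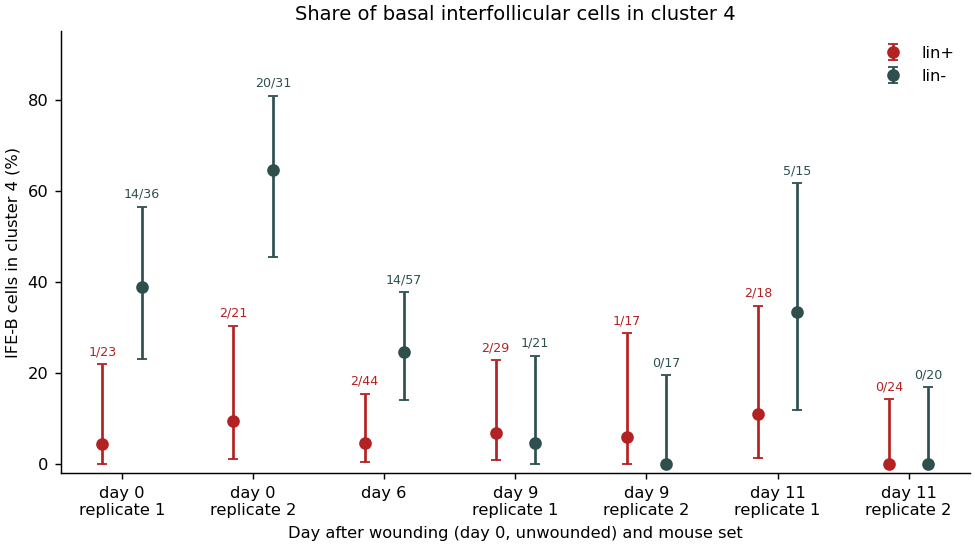
Share of IFE-B cells in cluster 4 (%) for lin+ (red) and lin- (dark) cells of each mouse set by day after wounding, with exact binomial 95% intervals and the cell numbers. The lin- shares of day 0 are 38.9% and 64.5%, and no lin+ share is above 11.1%.

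Cluster 4 cells carried the markers together. The median cell had a read for 6 of the 6 markers, against 3 in other IFE-B cells. At least 5 markers were read in 56 of 64 cluster 4 cells (87.5%) and in 57 of 309 other cells (18.4%). By cluster, 40 of 131 cells of cluster 0, 4 of 106 of cluster 2 and 0 of 39 of cluster 1 reached 5 markers, and 10 of the 18 IFE-B cells of cluster 3 did. Since the clusters were made from the genes of these cells, what follows on levels is a description with no test. The mean levels use the 4 sets with at least 3 cells on each side, all lin-: day 0 replicate 1 (14 cluster 4 and 22 other cells), day 0 replicate 2 (20 and 11), day 6 (14 and 43) and day 11 replicate 1 (5 and 10). Shares of cells with a read, and medians over the cells of a batch, cover IFE-B cells of both lineages and all days instead. These are not matched for lineage, and the other cells include many lin+ cells. Differences are of log2(mean level + 1).

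Serpinb2 separated the cluster most plainly of the 6 markers. Its mean was 654 CPM, 13990 TPM, 12160 TPM and 362 CPM in cluster 4 cells of day 0 replicate 1, day 0 replicate 2, day 6 and day 11, against 124 CPM, 755 TPM, 480 TPM and 0.125 CPM in other IFE-B cells. The median difference was 4.44, and it was positive in 4 of 4 sets. A Serpinb2 read was found in 80.0% of cluster 4 cells of batch 1 and 89.7% of batch 2, against 12.0% and 13.5% of other IFE-B cells. In clusters 0, 1 and 2 the share with a read was 0 to 16.0%. In cluster 3 it was 5 of 10 IFE-B cells in batch 1 and 4 of 8 in batch 2, and in cluster 5 it was 0 of 15, which allows up to 20.0%. Over cells, the median of cluster 4 was 139 CPM (highest 2914) in batch 1 and 9727 TPM (highest 47670) in batch 2, while the median of other cells was 0 in both. CPM of batch 1 and TPM of batch 2 are different scales, so these levels cannot be set against each other.

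Fcgbp came next, with means of 7692 CPM, 307 TPM, 371 TPM and 1710 CPM in cluster 4 cells of these sets, against 223 CPM, 94.8 TPM, 17.4 TPM and 626 CPM in other IFE-B cells, a median difference of 3.01. It was read in 92.0% and 89.7% of cluster 4 cells and in 56.4% and 30.7% of other cells of batches 1 and 2. Fcgbp was also common in cluster 0, where 74.0% and 53.1% of cells had a read.

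Dusp1 averaged 5444 CPM, 3196 TPM, 2629 TPM and 6725 CPM in cluster 4 cells, against 459 CPM, 1005 TPM, 636 TPM and 5249 CPM in other IFE-B cells (median difference 1.86). The gap was widest in day 0 replicate 1 and narrow at day 11, where it was 0.36. Avpi1 averaged 1606 CPM, 3053 TPM, 1965 TPM and 2079 CPM in cluster 4 cells, against 593 CPM, 2070 TPM, 215 TPM and 1500 CPM in other cells (1.00). Its order at day 11 rested on single cells. With the highest cell of each side left out, the day 11 mean was 829.8 CPM in cluster 4 and 996.5 CPM in other cells. In the other sets Avpi1 stayed higher in cluster 4 under that setting.

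The metal-handling markers separated the cells by how many had a read more than by the mean. Mt2 averaged 2090 CPM, 2650 TPM, 3744 TPM and 850 CPM in cluster 4 cells, against 757 CPM, 1614 TPM, 3515 TPM and 534 CPM in other cells, a median difference of 0.69. It was read in 60 of 64 cluster 4 cells and 206 of 309 other cells. Fth1 averaged 2060 CPM, 2376 TPM, 3165 TPM and 1969 CPM in cluster 4 cells, against 2352 CPM, 666 TPM, 3328 TPM and 914 CPM in other cells. Its mean was thus higher in 2 of 4 sets only, and the median difference of 0.52 became -0.07 without day 0 replicate 2 or without day 11. Single cells carried the other 2 sets. One other cell of day 0 replicate 1 had 41580 CPM, and the highest other cell of day 6 had 51720 TPM. With the highest cell of each side left out of every set, the means were 1837 CPM, 2257 TPM, 2840 TPM and 1611 CPM in cluster 4 cells, against 484 CPM, 148 TPM, 2175 TPM and 632 CPM in other cells, and the median difference was 1.64. Fth1 was read in 61 of 64 cluster 4 cells and 218 of 309 others, and reads of its processed pseudogenes may be shared with it. The related Mt1 was higher in 1 of 4 sets (median difference -0.16), and Ftl1, the ferritin light chain, was lower in 4 of 4 (-0.74). Of the 7 metallothionein, ferritin and metal-handling genes with a mean of at least 10 CPM and TPM, 1 was higher in all 4 sets (Mt2) and 1 lower (Ftl1).

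**Figure D2:**
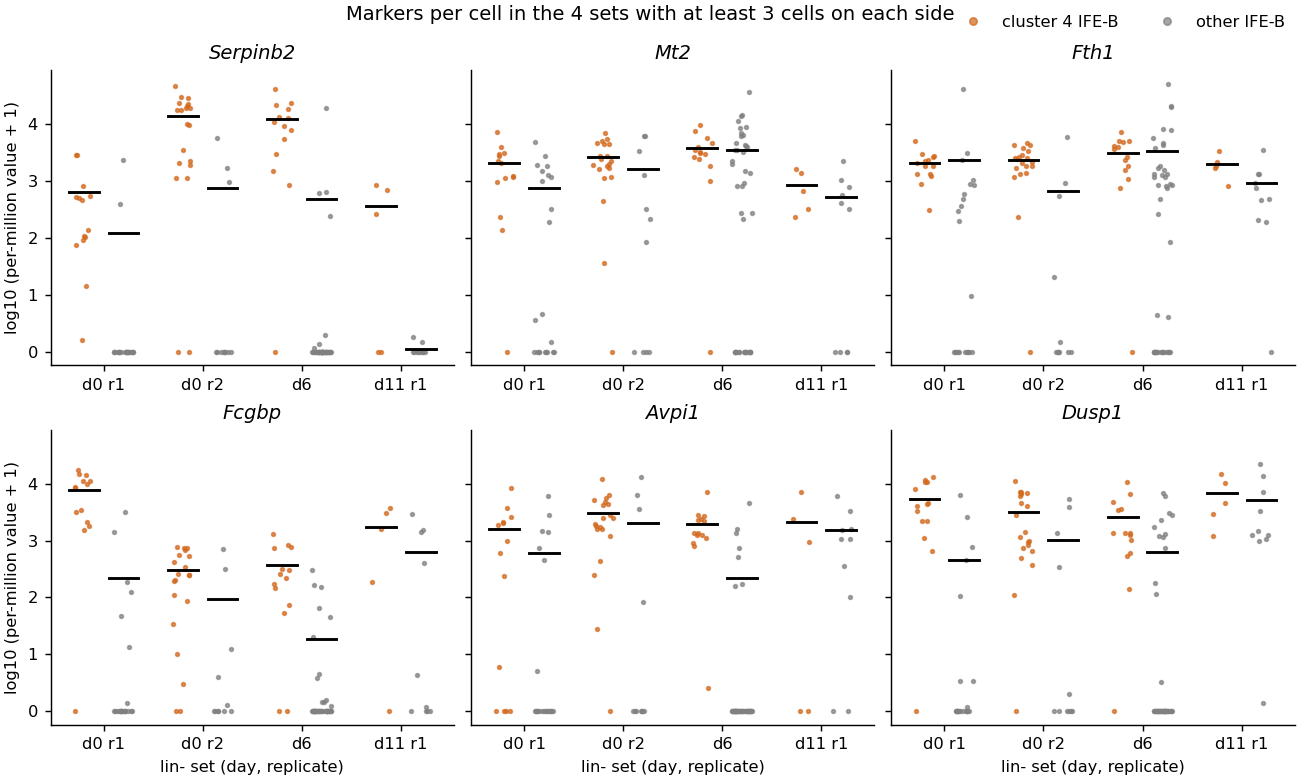
Level of the 6 markers per cell, log10(per-million value + 1), in cluster 4 (orange) and other IFE-B cells (grey) of the 4 lin- sets, with bars at the log10 of the mean level. Nearly all Serpinb2 values of other IFE-B cells lie at 0, while the Mt2 and Fth1 values of cells with a read overlap.

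Beyond the given markers, 5172 genes reached 20 CPM in batch 1 and 20 TPM in batch 2 on the higher side. Of these, 412 (7.97%) were higher in cluster 4 in all 4 sets and 276 (5.34%) lower in all 4. The 15 of each with the largest median difference were taken for description. The last gene inside and the first outside were Slc22a4 (5.55) and Bmp2 (5.54) at the higher end, and Tm4sf1 (-5.71) and Cd200 (-5.62) at the lower end.

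The leading gene was Il1r2, the decoy receptor that binds interleukin 1 without signalling. It averaged 292 CPM, 970 TPM, 1179 TPM and 796 CPM in cluster 4 cells of day 0 replicate 1, day 0 replicate 2, day 6 and day 11, against 0.0990 CPM, 0.211 TPM, 0 TPM and 0 CPM in other IFE-B cells of the same lin- sets. It was read in 40 of 64 cluster 4 cells (62.5%) and in 26 of 309 other IFE-B cells (8.41%). With other cells at or near 0, the difference of 9.64 depends on the 1 added before the log.

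Igfbp3, which binds insulin-like growth factors, averaged 878 CPM, 1097 TPM, 556 TPM and 237 CPM in cluster 4 cells, against 2.15 CPM, 272 TPM, 38.6 TPM and 0.184 CPM in other cells. It had a read in 40 of 64 cluster 4 cells and 15 of 309 other cells. Guca2a, which encodes guanylin, a peptide ligand of guanylate cyclase C known from the gut, averaged 312 CPM, 715 TPM, 1420 TPM and 1038 CPM in cluster 4 cells, against 10.2 CPM, 18.6 TPM, 16.7 TPM and 0 CPM in other cells. Its reads came from 27 of 64 cluster 4 cells and 11 of 309 other cells. Il20ra, a subunit of the receptors for interleukins of the IL-20 family, averaged 112 CPM, 104 TPM, 107 TPM and 105 CPM in cluster 4 cells, against 5.59 CPM, 0 TPM, 0.0987 TPM and 0 CPM in other cells, and was read in 19 of 64 against 4 of 309 cells.

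Epgn, a ligand of the EGF receptor, averaged 47.7 CPM, 518 TPM, 426 TPM and 67.4 CPM in cluster 4 cells, against 0 CPM, 0.929 TPM, 0 TPM and 0 CPM in other lin- cells. In batch 1, however, its share of cells with a read was 12.0% in cluster 4 and 12.8% in the others, whose reads lay in other sets. The remaining genes of the higher end were Gdpd2, Trim47, Arc, Mgrn1, Rora, Mxd4, Sike1, Spata5, Fbxo32 and Slc22a4. They include the nuclear receptor Rora, read in 23 of 64 cluster 4 cells and 19 of 309 others, and Mxd4, a partner of Max that opposes Myc. Most were read in a minority of the cells. When the level of a set was taken as its median over cells, 8 of the 21 markers and higher-end genes kept a higher median over the sets. With each gene's highest cell of each side of a set left out, 19 of the 21 did, and Mxd4 and Sike1 came to 0.00, Fbxo32 to 0.06.

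The lower end held genes of varied function. Fst, which encodes the activin antagonist follistatin, averaged 0.0979 CPM, 0.0209 TPM, 45.4 TPM and 0 CPM in cluster 4 cells of the 4 sets, against 415 CPM, 54.2 TPM, 337 TPM and 1789 CPM in other IFE-B cells. It was read in 9 of 64 cluster 4 cells and 146 of 309 others. Krt79, the keratin typical of the infundibulum and its duct, averaged 0 CPM, 0.0470 TPM, 0.144 TPM and 0 CPM in cluster 4 cells, against 130 CPM, 4.68 TPM, 57.9 TPM and 92.3 CPM in other cells. Aldh3a1, an aldehyde dehydrogenase, averaged 69.1 CPM, 0 TPM, 156 TPM and 0 CPM in cluster 4 cells, against 710 CPM, 315 TPM, 277 TPM and 875 CPM in other cells.

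Pthlh, the parathyroid hormone-like peptide, had a read in 1 of 64 cluster 4 cells and 38 of 309 others, and Lgals1 (galectin 1) in 1 of 64 and 44 of 309. Nrtn, a ligand of the GDNF family, was read in 5 and 46 cells, and Gadd45g, a stress-induced gene linked to growth arrest, in 4 and 46. The others were Acot1 and Acot7, thioesterases of fatty acyl-CoA, the amino acid transporter Slc38a4, and Smyd5, Pdcd2l, Trnau1ap, Ppil1 and Tm4sf1. With the level of a set taken as its median over cells, 0 of the 15 kept a lower median over the sets. With the highest cell of each side left out, 13 did, and Nrtn and Pthlh came to 0.00, Acot1 to -0.04. Against cluster 3, present in 1 set, 1 of the 15 was lower, and against cluster 5, also in 1 set, 6 were.

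**Figure D3:**
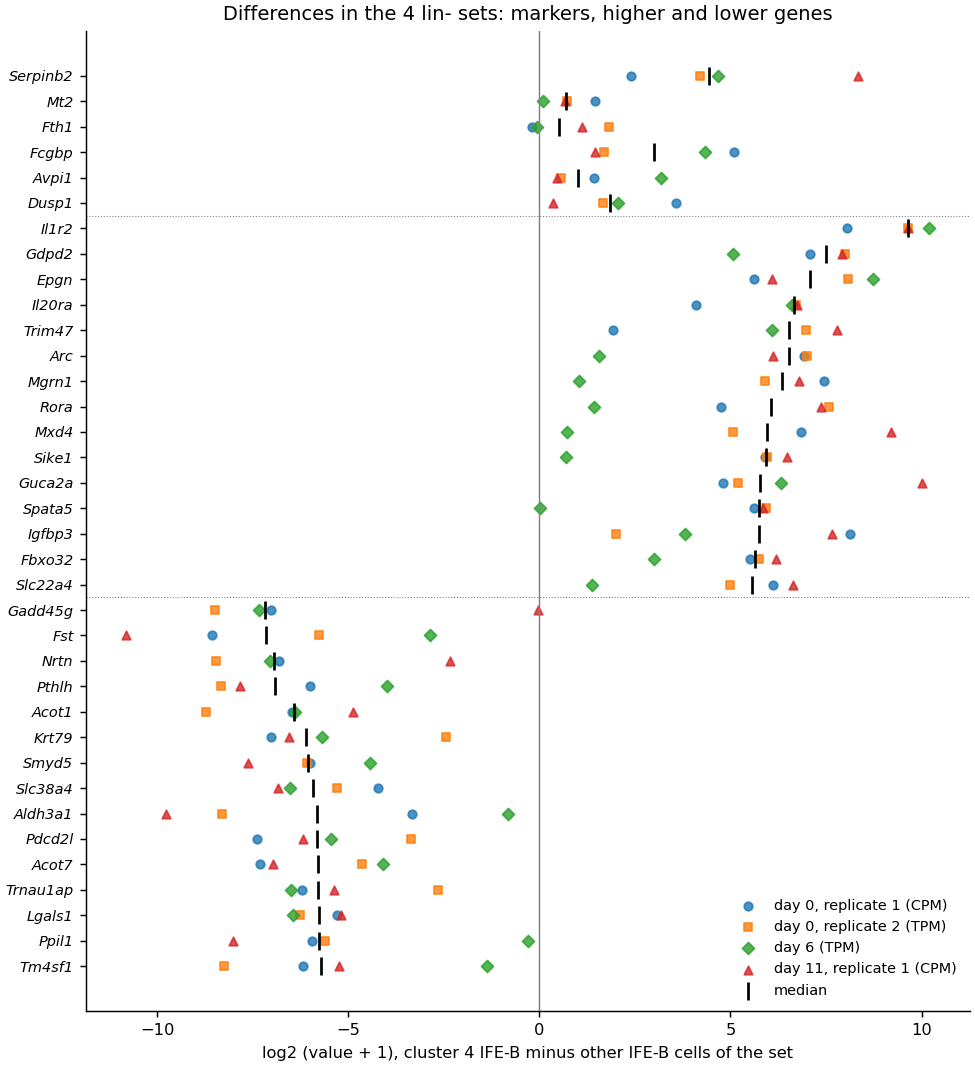
Differences of log2(mean level + 1), cluster 4 minus other IFE-B cells, in each of the 4 lin- sets for the 6 markers, the 15 genes of the higher end and the 15 of the lower end, with the median as a bar. Fth1 lies on both sides of 0, Spata5 is close to 0 at day 6 and Gadd45g is close to 0 at day 11.

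Gene lists were read against 5631 genes with a mean of at least 10 CPM and 10 TPM over all IFE-B cells, of which 395 (7.01%) were higher and 315 (5.59%) lower in cluster 4 in all 4 sets. Their median difference was 0.00, with set medians of -0.01 and 0.43 in day 0 replicates 1 and 2, 0.47 at day 6 and -0.70 at day 11. The day 11 median was the lowest of the 4.

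The adhesive and keratin programme of basal cells was higher. Of 12 basal interfollicular markers, 6 were higher in all 4 sets (Krt5, Krt14, Col17a1, Trp63, Mt2 and Thbs1), 0 were lower, and the median difference was 1.07. Krt14 averaged 31300 CPM, 11170 TPM, 12780 TPM and 36730 CPM in cluster 4 cells, against 8283 CPM, 4241 TPM, 2910 TPM and 34500 CPM in other IFE-B cells. Trp63, which encodes the transcription factor p63 of stratified epithelia, averaged 222 CPM, 341 TPM, 246 TPM and 167 CPM in cluster 4 cells, against 51.0 CPM, 59.0 TPM, 78.7 TPM and 89.7 CPM in other cells. Of 10 integrin, laminin and hemidesmosome genes, 3 were higher in all 4 sets and 0 lower (median 1.48). Lamb3, a laminin chain of the epidermal basement membrane, averaged 519 CPM, 152 TPM, 93.5 TPM and 374 CPM in cluster 4 cells, against 185 CPM, 9.91 TPM, 7.91 TPM and 167 CPM in other cells, and Col17a1 and Plec of the hemidesmosome were the others. Itga6, the surface protein used in the sort, was higher in 3 of 4 sets (median 2.95), with 95.9 TPM in cluster 4 and 237 TPM in other cells of day 0 replicate 2.

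Differentiation genes were mixed. Of 10 suprabasal genes, Krt10 and Krtdap were lower in all 4 sets and Dsg1a, a desmosomal cadherin, was higher. Krt10 averaged 95.2 CPM, 163 TPM, 9.09 TPM and 0.610 CPM in cluster 4 cells, against 752 CPM, 597 TPM, 318 TPM and 172 CPM in other cells. Dsg1a was read in 41 of 64 cluster 4 cells and 69 of 309 others, and its near-identical copies Dsg1b and Dsg1c may share its reads. Of the wound-induced keratins, Krt17 was higher in 1 of 4 sets, Krt6a in 2 and Krt16 in 3.

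Immediate early genes, transcribed within minutes of a stimulus, were higher at day 0 and day 6 but not at day 11. Of 20 such genes, Fosl1, Junb, Ier2 and Nr4a1 were higher in all 4 sets and 0 were lower. The median over the list was 1.33 and 1.00 in the day 0 replicates, 1.64 at day 6 and -0.90 at day 11. Over all genes it was -0.01, 0.43, 0.47 and -0.70 in the same sets. The day 11 value of the list thus lay near that of all genes. Fosl1 averaged 158 CPM, 376 TPM, 455 TPM and 401 CPM in cluster 4 cells, against 5.95 CPM, 13.3 TPM, 40.3 TPM and 238 CPM in other cells. Fos averaged 6020 CPM, 2639 TPM, 2770 TPM and 2822 CPM in cluster 4 cells, against 2105 CPM, 1212 TPM, 1278 TPM and 5565 CPM in other cells, so that its order turned at day 11. Among the 6 MAP kinase phosphatases and feedback genes, Dusp1 and Dusp7 were higher and Dusp6 lower in all 4 sets.

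Of 11 chemokine and cytokine genes, 4 were higher in all 4 sets (Cxcl14, Cxcl16, Il33 and Il1r2) and 0 lower. Cxcl14, a chemokine of resting epithelia, averaged 482 CPM, 512 TPM, 1218 TPM and 493 CPM in cluster 4 cells, against 0.286 CPM, 226 TPM, 738 TPM and 416 CPM in other cells. Il33, an alarmin stored in nuclei, averaged 112 CPM, 227 TPM, 235 TPM and 98.2 CPM in cluster 4 cells, against 35.5 CPM, 0 TPM, 100.2 TPM and 41.1 CPM in other cells. Of 14 MHC class I and interferon-induced genes, H2-K1, H2-D1, B2m, Psmb8 and Ly6a were higher and Ly6e lower in all 4 sets. Ly6a (Sca-1) averaged 180 CPM, 455 TPM, 604 TPM and 291 CPM in cluster 4 cells, against 55.9 CPM, 0 TPM, 107 TPM and 203 CPM in other cells. H2-K1 and H2-D1 are near-identical genes whose reads can be split between them.

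Several lists had negative medians. Of 19 S phase genes, Mcm5, Mcm7 and Chaf1b were lower in all 4 sets and 0 higher (median -2.29), with negative medians in each set. Of 18 mitosis genes 1 was lower (Ccnb1), at a share of 5.56% beside 5.59% of all genes, and the list had no common direction (set medians of -1.54, 0.93, 1.59 and -0.40). Mki67 was read in 12.0% and 20.5% of cluster 4 cells and in 29.1% and 32.8% of other cells of batches 1 and 2. Of 7 upper follicle and sebaceous duct genes, Krt79 and Defb6 were lower and 0 higher (median -2.23). Of 8 outer bulge genes, Sox9 and Fst were lower and Cxcl14 higher (-2.26). Their summed mean went the other way in 3 of the 4 sets, since it is mostly Krt15, a keratin of the bulge and also of the basal layer. Krt15 averaged 9946 CPM, 12180 TPM, 7339 TPM and 13870 CPM in cluster 4 cells, against 2952 CPM, 5908 TPM, 7827 TPM and 7956 CPM in other cells. Sox9, a transcription factor of follicle stem cells, averaged 0.0494 CPM, 40.2 TPM, 104 TPM and 0 CPM in cluster 4 cells, against 26.2 CPM, 492 TPM, 220 TPM and 267 CPM in other cells. It was read in 17 of 64 cluster 4 cells and 206 of 309 others, and in 78.0% and 97.5% of the cells of cluster 0. The 2 sebaceous gland genes measured had a median of -2.61 and the 3 wound-induced keratins -1.16, with 0 of either lower in all sets. Neither list had a common direction. In the order of the sets above, the set medians were -1.854, 1.309, -3.134 and -3.358 for sebaceous gland genes. For wound-induced keratins they were 0.36, -0.142, 0.621 and -2.705. Of 8 cell-cycle arrest and p53 target genes, Cdkn1b and Gadd45g were lower and Perp higher (-0.99), with set medians of -2.36, -0.26, 0.77 and -0.01. Of 28 ribosomal protein genes 6 were lower and 1 higher, with a median of -0.32.

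**Figure D4:**
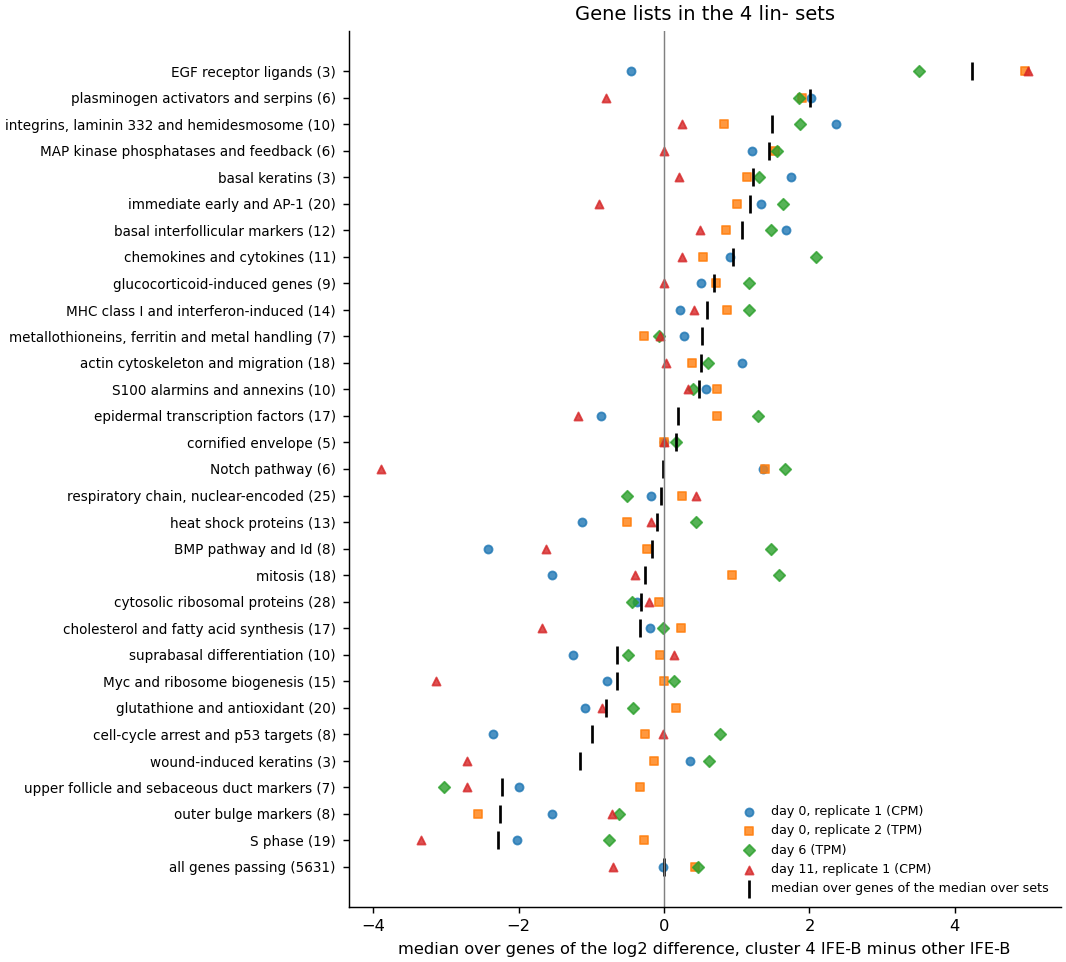
Median difference over the genes of each list, cluster 4 minus other IFE-B cells, in each of the 4 lin- sets, with the number of genes in parentheses and a bar at the median over genes of the median over sets. The set medians of S phase, upper follicle and outer bulge genes lie below 0 in all 4 sets, and the day 11 value of immediate early genes lies at -0.90. The day 11 median over all genes is -0.70, close to the outer bulge value of -0.72.

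Set against single clusters, all 21 markers and higher-end genes had a positive median difference from each of clusters 0, 1, 2, 3 and 5. The higher-end genes were chosen in these same cells for their excess over these clusters pooled. Their common sign therefore follows largely from that choice, and only the sizes of the differences are described. Serpinb2 was 8.23 above cluster 0 (3 sets), 9.51 above cluster 1 (2 sets) and 6.22 above cluster 2 (4 sets), as median differences of log2(mean level + 1). Il1r2 was 9.64, 10.06 and 9.60 above the same clusters, and Igfbp3 9.12, 6.55 and 8.51. In Serpinb2 the nearest was cluster 3, in 1 set. From it Serpinb2 differed by 1.33, Igfbp3 by 0.68, Guca2a by 2.98, Rora by 1.42, Gdpd2 by 1.94 and Spata5 by 0.02, while Il1r2 differed by 10.21. Dusp1 was only 0.51 above cluster 0, against 2.77 above cluster 2. Fst differed by -10.28 from cluster 0 and by -0.35 from cluster 1.

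**Figure D5:**
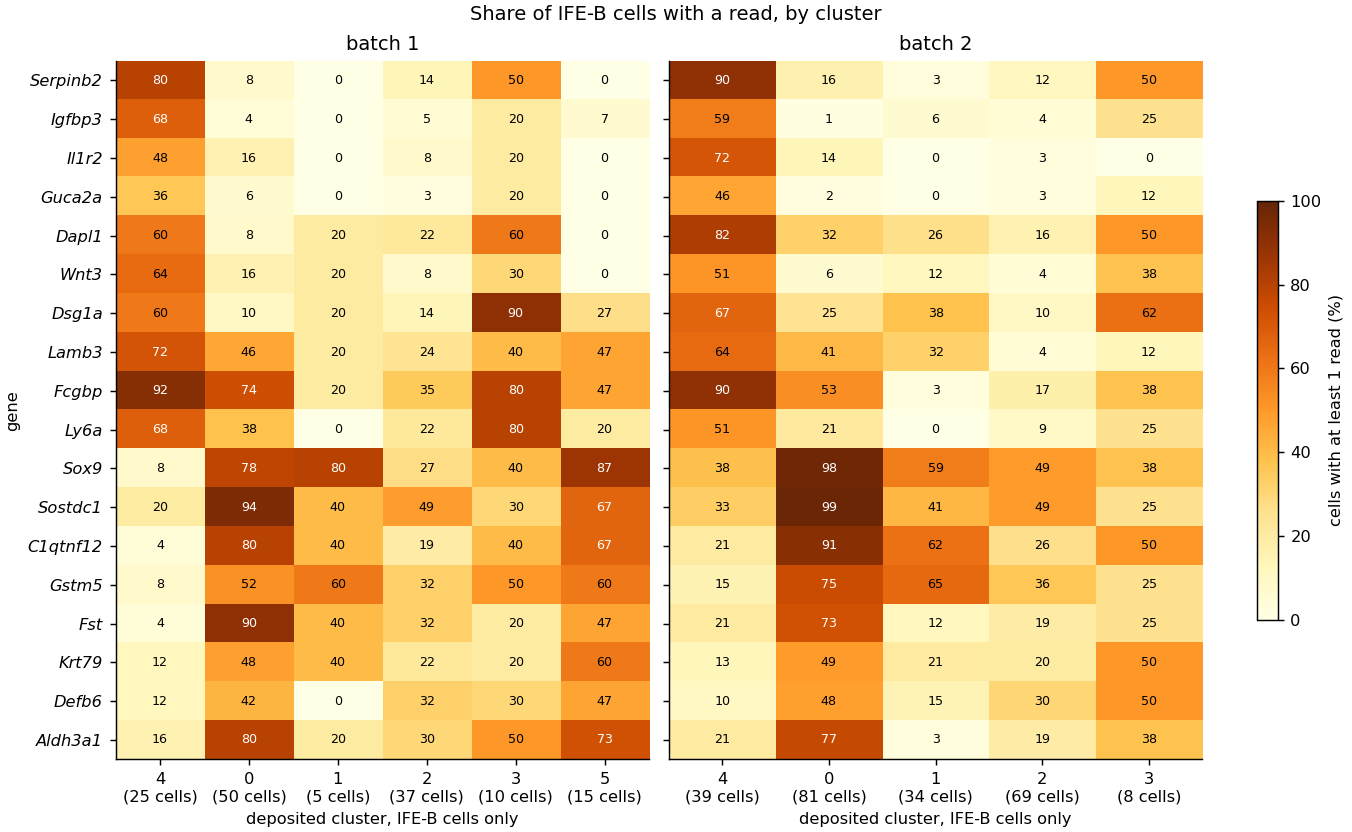
Percent of IFE-B cells with at least 1 read for 18 genes in clusters 4, 0, 1, 2, 3 and 5, in batch 1 and batch 2 (no IFE-B cell of cluster 5 is in batch 2). Serpinb2 is read in 80 and 90% of cells of cluster 4 and in 50% of the few cells of cluster 3, while Sox9, Sostdc1 and C1qtnf12 are read in 78 to 99% of the cells of cluster 0.

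The 10 lin+ cells of cluster 4 shared most of its markers. Their median was 5 of 6 markers read, against 6 in the 54 lin- cells. Fcgbp was read in 10 of 10 lin+ and 48 of 54 lin- cells, Serpinb2 in 7 of 10 and 48 of 54, Mt2 in 9 of 10 and 51 of 54, Fth1 in 9 of 10 and 52 of 54, Dusp1 in 9 of 10 and 50 of 54, and Avpi1 in 7 of 10 and 47 of 54. Among lin+ IFE-B cells outside cluster 4, 13.3% had a Serpinb2 read. Krt5 and Krt14 were read in 10 of 10 lin+ cells and Gata6 in 0 of 10, which allows up to 30.0%, against 21.7% of lin+ IFE-B cells of other clusters.

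Il1r2 and Igfbp3 divided the lin+ cells by wounding. All 7 lin+ cluster 4 cells from wounds had reads of both, with 380 to 2170 CPM or TPM for Il1r2 and 741 to 5189 for Igfbp3, whereas the 3 lin+ cells of day 0 had 0 of both. Among lin- cluster 4 cells, Il1r2 was read in 14 of 20 wound cells and 19 of 34 day 0 cells, and Igfbp3 in 12 of 20 and 21 of 34. This split was seen among few cells, which come from 4 wound sets and 2 day 0 sets, and it was noticed in the values. The authors wrote that unwounded lin+ cells high in Itga6 could be stray lin- cells with an IFE-B signature. Whether the 3 lin+ cells of day 0 are such cells was not tested. Krt79 was read in 5 of 7 lin+ wound cells, above a level of 1 in 1 of them (1580 TPM, at day 6), and in 1 of 20 lin- wound cells.

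Tests were made only of what the clustering did not use, the day and lineage labels, over the 11 sets that held cluster 4 cells. These sets held 1 to 20 cells each, the lin+ sets 1 or 2, so that their levels are uneven in precision. For wound minus day 0 within cluster 4, limma called 0 of 7594 genes at an adjusted p below 0.05 (0.00%), with 392 at an unadjusted p under 0.05. edgeR on summed reads called 0 with 474 at that level. With sets weighted by their number of cells, limma called 0 with 1104 at that level. Serpinb2 differed by -2.10 (SE 1.22, adjusted p = 0.949), Mt2 by -0.19 (SE 0.39, adjusted p = 0.997), Igfbp3 by 4.96 (SE 1.89, adjusted p = 0.929) and Il1r2 by 4.49 (SE 2.35, adjusted p = 0.943) on the log2 scale in limma. The lowest unadjusted p of the named and listed genes was that of Egr1, an immediate early transcription factor, at -4.20 (SE 1.07, adjusted p = 0.929). None of these passed the test, and none of the 6 markers did.

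For lin+ minus lin- within cluster 4, with the mouse set as a block, limma called 0 of 7594 genes, with 681 at an unadjusted p under 0.05. The median over all genes was -1.12, so most genes had a lower log2 mean in the small lin+ sets, and values are to be read against it. Serpinb2 differed by 0.10 (SE 1.14, adjusted p = 0.988), Fcgbp by -0.39 (SE 0.78, adjusted p = 0.925) and Krt14 by -0.23 (SE 0.22, adjusted p = 0.745). edgeR on summed reads called 1 gene, Nfkbia, the inhibitor of NF-κB, at -7.03 (adjusted p = 0.0498), where limma gave -5.88 (SE 1.29, adjusted p = 0.535).

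The difference between cluster 4 and other IFE-B cells was also tested for change. With wounding, limma called 0 of 10636 genes, with 712 at an unadjusted p under 0.05 and a median over all genes of -0.40. With lineage it called 0 of 10636, with 936 and a median of -1.10. No count model was run on these differences. Serpinb2 changed by -0.65 with wounding (SE 1.98, adjusted p = 0.979) and by 1.86 with lineage (SE 2.02, adjusted p = 0.799), so that with these sets a shift of its difference could not be told from 0.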

How the data were processed

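Reads of the Smart-seq2 libraries, which carry no molecular identifiers, were trimmed with Trimmomatic (version 0.27), aligned with STAR (2.2) to GRCm38 (mm10) and assigned with featureCounts, per the submitters' processing notes, and the table was processed by the authors in Seurat (3.2.2). The deposited values of batch 1 are read counts. The deposited values of batch 2 are RPKM, a step seen in the values and not named in the sources used here. The identities and clusters are those of the authors. Of 753 samples, 6 were blank wells, and the 684 annotated cells were used; 60 columns of per-sample values that match no annotated cell were not used. Library totals, which include ribosomal RNA, ranged in IFE-B cells from 5 to 7791000 reads, and intervals cover counting error only.

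Values were divided by the cell total and multiplied by 1000000 (CPM in batch 1, TPM in batch 2). Symbols of the same gene that differed between the batches were merged by their RefSeq synonyms (344 merged). Whole reads were recovered from the RPKM of batch 2 (99.99% of values within 0.02 of a whole read on average over cells, 99.7% in the lowest cell). For each set with at least 3 cells on each side, the difference is log2(mean + 1) of cluster 4 minus that of other IFE-B cells. Adding 1 understates the change of low genes. Doublets were not called here. The named genes were the 6 markers and up to 15 genes at each end of the median difference, among genes with at least 20 CPM and 20 TPM on the higher side and the same sign in all sets. For a test, up to 10 genes at each end among those that passed were to be named. The members and the 37 gene lists were chosen with earlier results of these data known.

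The planned limma fits on sets of at least 3 or 5 cells could not be made, for lack of residual degrees of freedom. Sets of at least 1 cell were fitted instead, a choice made after seeing the data, with limma (3.58.1, trend, Benjamini-Hochberg adjustment over all genes with a level of at least 10 CPM or TPM in 2 sets). The wound fits had batch and lineage as terms and 5 residual degrees of freedom, and the lineage fits had the mouse set as a block and 4. The pairing of lin+ and lin- cells comes from the shared skin of a mouse set, and deviations of the paired sets from their group means correlated at -0.05 to -0.18 over 7594 genes. Day 0 skin came from the mice wounded for days 9 and 11, but no label ties a day 0 set to a wound set, and the fits treat them as independent. The p-values measure the spread between such sets. edgeR (4.0.16, quasi-likelihood) on summed reads was an alternative. Analyses were run in Python (3.11.15) and R (4.3.3) and were tested on simulated data.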

Additional observations from a re-analysis of the deposited data

How the results depend on the processing

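The share of IFE-B cells in cluster 4 was 17.2%, 18.1% among cells with at least 500000 reads and 20.2% among those with at least 2000 genes. The 4 tests called 0 genes in the fits reported and under each alternative, including each set of replicates left out (0 to 0 calls), apart from edgeR for lineage, which called 1, and the wound change of the difference without a filter on low values, which called 9. Weighting sets by cell number, a setting not planned, raised the genes at an unadjusted p under 0.05 in limma. They were 1104 for wounding and 1114 for lineage within cluster 4. For the changes of the difference they were 2041 with wounding (lowest adjusted p = 0.0555) and 1352 with lineage. Without the replicate block the lineage fits called 0 genes. For wounding, a replicate block by number is the batch term once day 6 is left out. That fit is therefore the same as the one without day 6, which called 0. The counts of higher and lower named genes, 21 and 15, were 20 to 21 and 15 to 15 when each set was left out, 8 and 0 with the median over cells, and 19 and 13 with each gene's highest cell on each side left out, an alternative chosen after seeing the data. The genes of both ends were chosen for the same sign in all 4 sets, so leaving out a set could not turn them. Their counts under that setting are therefore no check. Of the 6 markers, only Fth1 turned with a set left out, to -0.072 without lin- day 0 replicate 2 or without lin- day 11 replicate 1, within a range of -0.072 to 1.106. Against cluster 3 the count of lower genes was 1 and against cluster 5 it was 6. Lower-end genes that turned positive were Pthlh 0.052, Acot1 0.082, Aldh3a1 3.65 and Tm4sf1 2.60 against cluster 1, Ppil1 0.10 against cluster 2, and Acot1 0.022, Slc38a4 1.46 and Lgals1 0.024 against cluster 5. Against cluster 3 they were Gadd45g 0.049, Fst 5.54, Pthlh 0.10, Acot1 0.16, Krt79 0.19, Aldh3a1 0.77, Pdcd2l 1.03, Acot7 0.028 and Tm4sf1 5.20. The cause was not tested. Leaving Rn18s and Rn45s out of the total kept every named gene's sign. With only other cells of at least 2000 genes compared, 7 named genes moved by at least their spread. In that comparison 29 stayed and 0 turned sign. The limma fits planned for sets of at least 3 or 5 cells gave no value. Depth limits the single cell: a level rests on few molecules, many genes were read in a minority of cells, and sets of 1 or 2 lin+ cells bound what the tests could call.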

Other observations

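Ranked by the share of cells with a read instead of the mean level, a choice made after the values were seen, further genes differed between cluster 4 and other IFE-B cells. Wnt3, a ligand of the Wnt pathway, was read in 64.0% of cluster 4 cells and 12.8% of other IFE-B cells of batch 1, and in 51.3% of cluster 4 and 7.81% of other cells of batch 2. Its mean was 396 CPM, 130 TPM, 44.0 TPM and 511 CPM in cluster 4 cells of day 0 replicate 1, day 0 replicate 2, day 6 and day 11, against 7.88 CPM, 78.1 TPM, 16.1 TPM and 255 CPM in other lin- IFE-B cells. Dapl1, a gene of early epithelial differentiation, was read in 60.0% and 82.1% of cluster 4 cells and in 16.2% and 26.0% of other cells of batches 1 and 2, and its mean was higher in cluster 4 at day 0 and day 6 but not at day 11 (109 CPM in cluster 4 and 139 CPM in other cells). Mef2a, a transcription factor of the MADS family, was read in 52.0% and 61.5% of cluster 4 cells and 16.2% and 23.4% of other cells.

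Ccn1, a matrix protein made in response to growth factors and mechanical load, averaged 2669 CPM, 2627 TPM, 1200 TPM and 2449 CPM in cluster 4 cells, against 832 CPM, 554 TPM, 301 TPM and 1719 CPM in other cells. Lgals3 (galectin 3) averaged 2413 CPM, 2811 TPM, 2447 TPM and 2168 CPM in cluster 4 cells, against 1020 CPM, 1266 TPM, 1237 TPM and 781 CPM in other cells, an even difference of 0.98 to 1.47 over the sets.

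Among genes read less often in cluster 4, Sostdc1, a secreted inhibitor of BMP and Wnt signals, was read in 18 of 64 cluster 4 cells and 210 of 309 other cells, and in 94.0% and 98.8% of the cells of cluster 0. It averaged 141 CPM, 124 TPM, 665 TPM and 554 CPM in cluster 4 cells, against 2272 CPM, 1696 TPM, 966 TPM and 3931 CPM in other cells. C1qtnf12, a secreted C1q-related protein, was read in 4.00% and 20.5% of cluster 4 cells and 53.8% and 60.9% of other cells, and Gstm5, a glutathione transferase, in 8.00% and 15.4% of cluster 4 cells and 47.0% and 57.3% of other cells. Mgst1 and Aadac, enzymes of lipid and xenobiotic metabolism, were read in 12.0% and 12.8% and in 0% and 7.69% of cluster 4 cells of batches 1 and 2, against 41.0% and 47.4% and 23.1% and 33.3% of other cells. The 0 of 25 cells for Aadac allow a share of up to 12.0%. Because the cluster was made from these cells, all of this is description, and the share of cells with a read also follows depth and gene number.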
